A study of Homo sapiens with 6 samples.

Results

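The regions described here are the H3K27Ac and H3K4me3 peaks along human chromosome 8 in OCI-AML3 cells, apart from those around MYC. They were chosen by their measured density, which exceeded that of every other autosome, so the density itself is given as a description and not as a finding. All peaks listed on chromosome 8 were taken, and the MYC gene with 1 Mb upstream and 2 Mb downstream was left out. This gave 35015 of 327715 peaks in the sgNeg H3K27Ac list and 34866 of 317059 in the sgNpm1A H3K27Ac list. For H3K4me3 it gave 51315 of 353628 peaks in sgNeg and 17970 of 106641 in sgNpm1A. Between 466 and 1223 peaks per list fell into the window that was left out.

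OCI-AML3, an established human cell line, was derived from acute myeloid leukemia (AML) and has a mutated nucleophosmin gene (mtNPM1). The cells received a control guide RNA, called sgNeg, or one aimed at mtNPM1, called sgNpm1A, and were collected 3 days later per the labels, while the study's text gives a longer incubation. The series holds 6 samples in 6 groups of 1 library each. The 4 peak lists were used, and the 2 inputs were not analysed here, so that the number of DNA copies along chromosome 8 was not measured. No group had a replicate. No p-value is therefore given, each comparison describes a pair of libraries, and the 95% Wilson intervals cover error from counting alone. OCI-AML3 is named in all labels, although the names of the H3K27Ac lists carry a tag that the H3K4me3 lists do not, and its meaning was not stated. H3K27Ac positions are on GRCh37 and H3K4me3 positions on GRCh38, so peaks were matched only within a mark.

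Acetylation of lysine 27 of histone H3 (H3K27Ac) lies at active promoters and enhancers, and trimethylation of lysine 4 (H3K4me3) lies mainly at active promoters. Wide domains of either mark are known to lie over genes that are strongly transcribed or that define a cell type. A peak is a stretch of the genome where the authors' peak caller found more fragments than expected, and its fold enrichment is the ratio of observed to expected. Width and fold enrichment were used to set promoters apart from the many weak peaks around them.

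The myeloid markers gave a check of the cells. In the sgNeg H3K27Ac list, all 4 markers (MPO, CD33, SPI1 and CSF1R) had a promoter peak, and 3 were among the widest 1% of peaks in the list. SPI1, which encodes the myeloid transcription factor PU.1, had a fold enrichment of 10.5 there. CD3E, EPCAM and ALB, markers of other lineages, also had a promoter peak in that list, but none was wide and their fold enrichment was between 2.55 and 2.66. In the sgNeg H3K4me3 list 2 of 4 myeloid markers had a peak at the start of the gene record, and of these other markers CD3E alone had one. SPI1 had a wide peak there at 10.6-fold, but MPO had 131 bp at 3.12-fold, below CD3E at 3.74-fold. In that list fold enrichment thus did not set MPO apart from CD3E. In sgNpm1A none of these markers had a wide promoter peak of either mark, although the CSF1R H3K27Ac peak of 3210 bp lay just under the limit of 3219 bp. The presence of a promoter peak alone thus did not separate the lineages in these lists. In sgNeg H3K27Ac, width and fold enrichment set CD3E, EPCAM and ALB apart from the 4 myeloid markers. They did not set apart all genes of other tissues. HNF4G on chromosome 8 had 4.59-fold, against 3.71-fold for CD33 and 3.34-fold for CSF1R. The 28 genes of other tissues described below had a median fold percentile of 87.9, against 90.3 for CSF1R.

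Its peaks made up 10.7% (10.6 to 10.8) of the sgNeg H3K27Ac list and 11.0% (10.9 to 11.1) of the sgNpm1A list. For H3K4me3 the shares were 14.5% (14.4 to 14.6) in sgNeg and 16.9% (16.6 to 17.1) in sgNpm1A. Peaks of the sgNeg H3K27Ac list covered 16.6% of chromosome 8 against 7.11% of the other autosomes, and those of sgNpm1A covered 18.8% against 6.10%. H3K4me3 peaks covered 10.2% against 2.89% in sgNeg and 7.28% against 1.64% in sgNpm1A. The median fold enrichment was 2.81 and 3.01 for H3K27Ac in sgNeg and sgNpm1A, against 2.77 and 2.93 on the other autosomes. For H3K4me3 it was 3.33 and 3.82, against 3.33 and 3.56. The median H3K27Ac peak was 398 bp wide in sgNeg, against 352 bp on the other autosomes, and 529 bp in sgNpm1A, against 402 bp. Median H3K4me3 widths were 211 bp in sgNeg and 446 bp in sgNpm1A, against 189 and 400 bp elsewhere.

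Both arms were dense along most of their length. Bins of 500 kb on the 2 arms, with the centromere left out, were set against the median bin of the other autosomes. Bins with no peak in either list of a mark were left out on all autosomes. On chromosome 8 these were 2 of the 86 short-arm bins for H3K27Ac, from 7 to 8 Mb (GRCh37), and 1 for H3K4me3, from 7.5 to 8 Mb (GRCh38), while the long arm had none. The median bin on chromosome 8 held 2.90 times that density in sgNeg H3K27Ac, 2.91 times in sgNpm1A H3K27Ac, 4.94 times in sgNeg H3K4me3 and 6.62 times in sgNpm1A H3K4me3. On the short arm the 4 values were 3.03, 2.92, 5.06 and 6.50, and on the long arm 2.85, 2.91, 4.79 and 6.88. In the H3K27Ac lists, 275 of the 276 bins with a peak lay above the autosome median in sgNeg and 275 of 276 in sgNpm1A. In the H3K4me3 lists 275 and 276 of 277 such bins did. A density above 2 times the median was met in 81.2% of the bins in sgNeg H3K27Ac, against 23.6% of the bins of the other autosomes, and in 88.0% against 19.4% in sgNpm1A. For H3K4me3 it was met in 96.8% against 27.6% in sgNeg and 97.5% against 30.2% in sgNpm1A. Since chromosome 8 was chosen for its density, nothing is read from these counts beyond that they held along both arms.

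**Figure D1:**
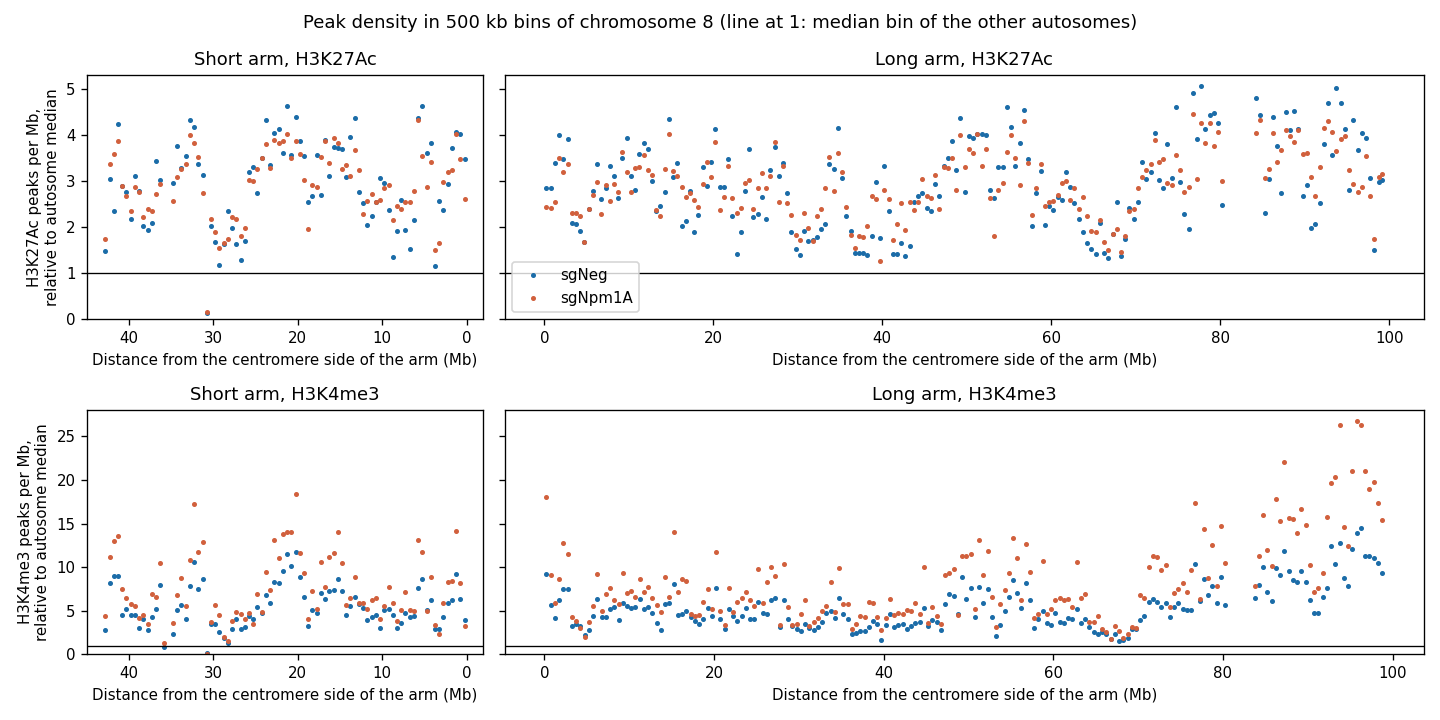
Peaks per Mb in 500 kb bins of chromosome 8, relative to the median bin of the other autosomes (vertical axis), against the distance from the centromere side of the arm in Mb (horizontal axis), for sgNeg (blue) and sgNpm1A (orange). Nearly all bins of both arms lie above the line at 1, and the H3K4me3 values of sgNpm1A reach 26.8 near the end of the long arm; the wide gap on the long arm is the MYC window, and the short-arm bins with no peak are not drawn.

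The peak density of chromosome 8 did not follow its gene density. Of the other autosomes, the most gene-rich, 17, 19 and 22, were among the denser ones in all 4 lists. The most gene-poor, 4, 13 and 18, were among the sparser ones. Coding gene starts were sparse on chromosome 8, at 4.76 per Mb on GRCh37 and 4.60 per Mb on GRCh38, which ranked 19th of the 22 autosomes in both annotations. Its peak density ranked 1st in all 4 lists. Chromosome 1 had the next highest median bin in sgNpm1A H3K27Ac (2.14 times), sgNeg H3K4me3 (2.97 times) and sgNpm1A H3K4me3 (3.63 times). In sgNeg H3K27Ac, chromosomes 1, 17 and 19 shared the next place at 2.05 times. In the plot of all autosomes the gene-rich chromosomes 17 and 19 lie far to the right of chromosome 8 and below it. Within chromosome 8, bins with a coding start were the denser ones, with a median of 276 sgNeg H3K27Ac peaks per Mb, but bins with no coding start still held 192, against 38 in such bins elsewhere. The medians were 218 against 52 in sgNpm1A H3K27Ac, 268 against 34 in sgNeg H3K4me3 and 88 against 10 in sgNpm1A H3K4me3. Across the bins of chromosome 8, Spearman's rho between peaks and coding starts was 0.47 and 0.31 for H3K27Ac in sgNeg and sgNpm1A (276 bins), and 0.33 and 0.23 for H3K4me3 (277 bins). On the other autosomes it was 0.55, 0.46, 0.49 and 0.38 in the same order. These are descriptions over bins that share a library.

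**Figure D2:**
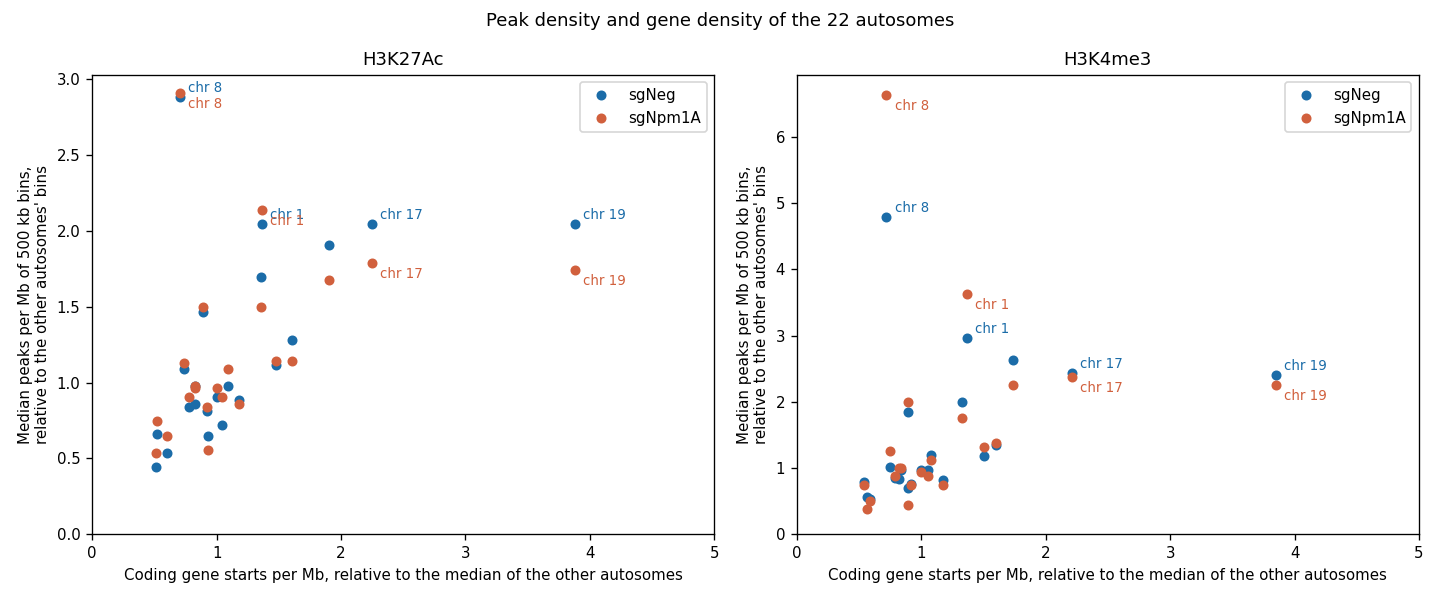
Median peaks per Mb of the 500 kb bins of each autosome, centromere bins included, relative to the bins of the other autosomes (vertical axis), against coding gene starts per Mb relative to the median of the other autosomes (horizontal axis). Each point is 1 autosome in 1 list, and chromosome 8 stands highest in all 4 lists at 0.707 (GRCh37) and 0.72 (GRCh38) times the median gene density.

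Within the chromosome, dense and sparse stretches lay at like places in both guide RNA lists. Spearman's rho between sgNeg and sgNpm1A over the bins was 0.86 for H3K27Ac and 0.95 for H3K4me3. On the other autosomes it was 0.90 and 0.91, so this likeness was not particular to chromosome 8. The last stretch of the long arm was the densest for H3K4me3. From 130 to 140 Mb the median bin held 8.44 times the autosome median in sgNeg and 15.4 times in sgNpm1A, and from 140 Mb to the end 11.1 and 19.4 times. The last stretch is also rich in genes, with 98 coding starts in 10 bins, but the stretch before it held 20 starts in 20 bins. For H3K27Ac the stretch from 120 to 130 Mb had 3.91 times the autosome median in sgNeg, and 130 to 140 Mb had 3.76 times in sgNpm1A. A second dense stretch, from 20 to 30 Mb on the short arm, had 3.71 and 3.55 times for H3K27Ac and 7.24 and 10.8 times for H3K4me3 in sgNeg and sgNpm1A. The sparsest stretches were 80 to 90 Mb (1.86 times in sgNeg H3K27Ac) and 110 to 120 Mb (2.29 times in sgNpm1A H3K27Ac, 2.93 and 3.75 times in sgNeg and sgNpm1A H3K4me3). These still lay above the autosome median.

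Single bins showed the ends of this range. The bin with the most sgNeg H3K27Ac peaks, chr8:124500001-125000000 (GRCh37), held 217 peaks, or 5.05 times the autosome median. It contains the starts of FBXO32, a muscle ubiquitin ligase subunit, and of ANXA13, FAM91A1, FER1L6 and KLHL38. The bin with the start of ZHX2, a transcriptional repressor, ranked 1st in sgNpm1A H3K27Ac with 191 peaks (4.44 times) and 3rd in sgNeg with 211 (4.91 times). For H3K4me3, chr8:142000001-142500000 (GRCh38), with the starts of ADGRB1, a brain adhesion receptor, and TSNARE1, held 494 peaks in sgNeg (14.5 times) and 211 in sgNpm1A (26.4 times). At the other end, chr8:12000001-12500000 was the lowest of the bins with a peak in all 4 lists, with 6 and 7 H3K27Ac peaks and 3 and 0 H3K4me3 peaks in sgNeg and sgNpm1A. It holds DEFB130A and the FAM86B genes, which have near-identical copies nearby, and how reads were assigned among the copies was not tested. The defensin bin chr8:7000001-7500000 (GRCh38) was the next lowest of these for H3K4me3, with 29 and 10 peaks.

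The excess was uneven between classes of peak. Chromosome 8 peaks per Mb were divided by the median of the 21 other autosomes within each class. For peaks at a coding promoter, that is, within 1 kb of a coding start, the ratio was 1.09 in sgNeg H3K27Ac (10th of 22 autosomes), 1.38 in sgNpm1A H3K27Ac (7th) and 1.14 in sgNeg H3K4me3 (8th). It was 3.63 in sgNpm1A H3K4me3 (3rd). These ratios are per Mb and not per coding start. Chromosome 8 had 0.707 (GRCh37) and 0.72 (GRCh38) times the median coding starts per Mb, and a ratio per start was not computed. For peaks over 5 kb from any coding start the ratios were 3.03, 2.86, 4.12 and 5.22, the highest of all autosomes in each list. Such distal peaks made up 84.8% of the sgNeg H3K27Ac peaks of chromosome 8, against 72.8% elsewhere, and 94.4% of the sgNeg H3K4me3 peaks, against 87.8%.

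The excess also differed between bands of fold enrichment. In sgNeg H3K27Ac the ratio was 2.35 below 3-fold and 3.16 between 3- and 4-fold, but 1.31 between 4- and 6-fold and 1.36 at 6-fold or more. When only sgNeg H3K27Ac peaks with a q-value under 1e-05 were counted, the median bin of chromosome 8 equalled that of the other autosomes, at 1.00 times. Under the same limit sgNeg H3K4me3 stayed at 6.5 times. Within that class of peaks the ratio of chromosome 8 to the other autosomes was 1.18 and 2.49 for H3K27Ac in sgNeg and sgNpm1A, and 5.80 and 10.8 for H3K4me3, so the low value was seen in sgNeg H3K27Ac alone. In sgNeg H3K4me3 the ratio was 7.32 between 4- and 6-fold and was 1.85 at 6-fold or more. In sgNpm1A the excess reached higher folds, with 3.77 between 4- and 6-fold and 1.72 above for H3K27Ac, and with 8.50 and 10.6 for H3K4me3. The value of 10.6 divides by a median of only 0.167 such peaks per Mb on the other autosomes. Width bands gave a different picture in each guide RNA list. Peaks of 2 kb or more were 2.12 times as dense as elsewhere in sgNeg H3K27Ac and 8.19 times in sgNpm1A H3K27Ac. For H3K4me3 the ratios were 4.23 and 34.2. The value of 34.2 divides by a median of only 0.0526 such peaks per Mb on the other autosomes. In sgNeg H3K27Ac chromosome 17 stood higher, at 2.48 times, and chromosome 8 ranked 3rd. Chromosome 5 was close by or above for H3K4me3, at 4.50 times in sgNeg H3K4me3 and 31.8 times in sgNpm1A H3K4me3.

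**Figure D3:**
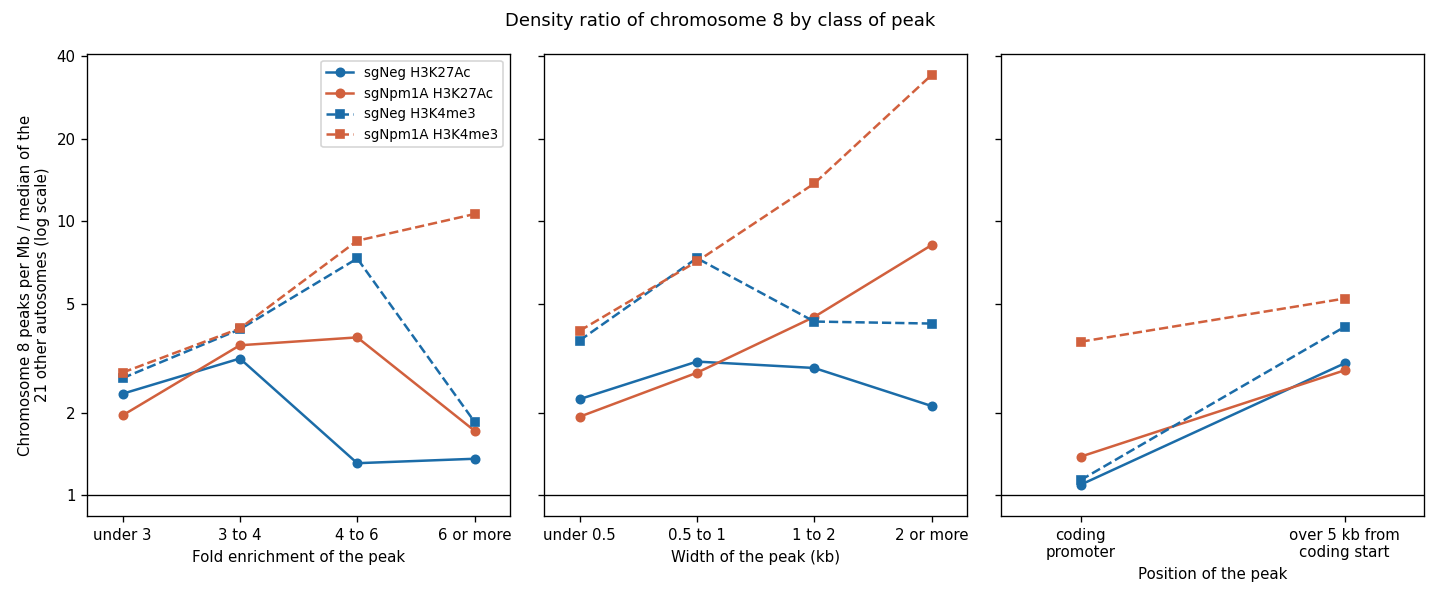
Ratio of chromosome 8 peaks per Mb to the median of the 21 other autosomes (vertical axis, log scale) by band of fold enrichment, band of width in kb, and position (horizontal axes), for the 4 lists. At coding promoters 3 lists lie between 1.09 and 1.38, while over 5 kb from a coding start all 4 lie between 2.86 and 5.22. The ratios are per Mb and are not adjusted for the sparse coding starts of chromosome 8.

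Promoters were next described by whether they held a peak at all. Outside the MYC window the annotations placed 707 coding genes on chromosome 8 for H3K27Ac, where any annotated transcript start was used, and 664 for H3K4me3, where only the start of the gene record was used. A H3K27Ac promoter peak can therefore lie at an internal start, far from the start of the gene record. A H3K27Ac peak lay at 619 promoters in sgNeg, 87.6% (84.9 to 89.8) against 81.0% on the other autosomes, and at 589 in sgNpm1A, 83.3% (80.4 to 85.9) against 58.7%. A H3K4me3 peak lay at 557 promoters in sgNeg, 83.9% (80.9 to 86.5) against 66.5%, and at 152 in sgNpm1A, 22.9% (19.9 to 26.2) against 7.41%. A H3K27Ac peak in sgNeg alone was seen at 46 promoters, 6.51% against 27.4%. A H3K4me3 peak in sgNeg alone was seen at 414, 62.3% against 60.9%, so that for H3K4me3 this share was near that of the other autosomes. Chromosome 8 was also the densest in peaks away from promoters, and the part of that density in these shares was not tested.

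Width set a smaller group of promoters apart. A peak was called wide from the 99th percentile of width in its own list upwards, which was 5416 and 3219 bp for H3K27Ac in sgNeg and sgNpm1A, and 1254 and 1919 bp for H3K4me3. In sgNeg H3K27Ac, 122 promoters had a wide peak, 17.3% (14.7 to 20.2) against 8.50% on the other autosomes. In sgNpm1A H3K27Ac there were 115, 16.3% (13.7 to 19.2) against 3.93%. In sgNeg H3K4me3 there were 172, 25.9% (22.7 to 29.4) against 11.0%, and in sgNpm1A H3K4me3 there were 10, 1.51% (0.82 to 2.75) against 0.159%. Neighbouring genes can share a peak and are then not independent. Just inside the limit in sgNeg H3K27Ac were CYRIB with 5455 bp and PRSS51 with 5460 bp, and just outside were RIMS2 with 5404 bp and NDUFB9 with 5309 bp. For sgNpm1A H3K27Ac, KLHL38 with 3271 bp was just inside and DPYS with 3194 bp just outside. The pairs were POLR3D with 1254 bp and OXR1 with 1249 bp in sgNeg H3K4me3, and C8orf90 with 1954 bp and SLURP2 with 1870 bp in sgNpm1A H3K4me3. Many promoters thus lay close to the limit.

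The widest H3K27Ac promoter peaks of sgNeg lay mostly beyond 140 Mb, near the end of the long arm. The widest covered PLEC, which encodes the cytoskeletal linker plectin, at chr8:144985776-145033693 (GRCh37). It was 47918 bp wide with a fold enrichment of 5.18 in sgNeg, and sgNpm1A peaks of up to 12273 bp and 3.90-fold covered 84.2% of it. NDRG1, a stress- and differentiation-responsive gene, had a peak of 38905 bp at one of its internal starts (5.19-fold) in sgNeg. Of it 49.3% was covered by 16 sgNpm1A peaks of up to 7024 bp and 4.48-fold. A single peak of 34937 bp covered the promoters of 7 genes, among them RECQL4, a DNA helicase of genome maintenance, GPT, which encodes an alanine aminotransferase, LRRC14 and MFSD3, and of PPP1R16A, C8orf82 and LRRC24. In sgNpm1A 6 peaks of up to 11987 bp covered 79.9% of it.

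The other promoters among the 10 widest had fold enrichments between 3.44 and 6.75 in sgNeg. SLC45A4, a solute carrier, had 29844 bp, and 75.3% of this was covered by sgNpm1A peaks of up to 11584 bp. SLA encodes an adaptor protein of blood cells and lies within TG, the thyroglobulin gene. An internal start of each gene lay under a 29262 bp peak of 6.22-fold, and the starts of both gene records lay outside it. Of this peak 56.3% was covered by 11 sgNpm1A peaks of up to 7042 bp and 4.91-fold. DENND3, an activator of a Rab GTPase, had 19757 bp (6.75-fold), and 9 sgNpm1A peaks of up to 3119 bp and 3.88-fold covered 50.2% of it. Another DENND3 start had a sgNpm1A peak of 7.29-fold, which lay under a sgNeg peak of 4.74-fold. SCRIB, a cell polarity gene, and PUF60, a splicing factor gene, shared 24491 bp at 3.49-fold. DGAT1, the enzyme of the last step of triglyceride synthesis, and an internal start of HSF1, the heat shock transcription factor, shared 19071 bp at 3.95-fold. PTP4A3, a phosphatase, had 18276 bp at 3.44-fold and GPR20, an orphan receptor, 15816 bp at 3.54-fold. In sgNpm1A these last promoters were again among the widest, with 16430 bp at DGAT1 and HSF1, 14871 bp at PTP4A3, 13205 bp at SCRIB and 11192 bp at GPR20. The 5 widest sgNpm1A peaks also included ZC3H3, a zinc finger gene, with 15504 bp, and EPPK1, which encodes epiplakin, with 15499 bp. The ZC3H3 peak was overlapped by sgNeg peaks of up to 19005 bp and the EPPK1 peak by sgNeg peaks of up to 6499 bp. The 5 widest promoter peaks of sgNpm1A had fold enrichments between 3.60 and 3.71, with no common direction against sgNeg. Fold enrichment was higher in sgNpm1A at SCRIB (3.60 against 3.49), PTP4A3 (3.69 against 3.44) and ZC3H3 (3.70 against up to 3.25). It was lower at DGAT1 and HSF1 (3.71 against 3.95) and at EPPK1 (3.68 against up to 4.68). GPR20 had 3.64 in sgNpm1A against 3.54. The sgNeg peaks at PLEC, NDRG1, SLA and DENND3 were stronger than these.

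**Figure D4:**
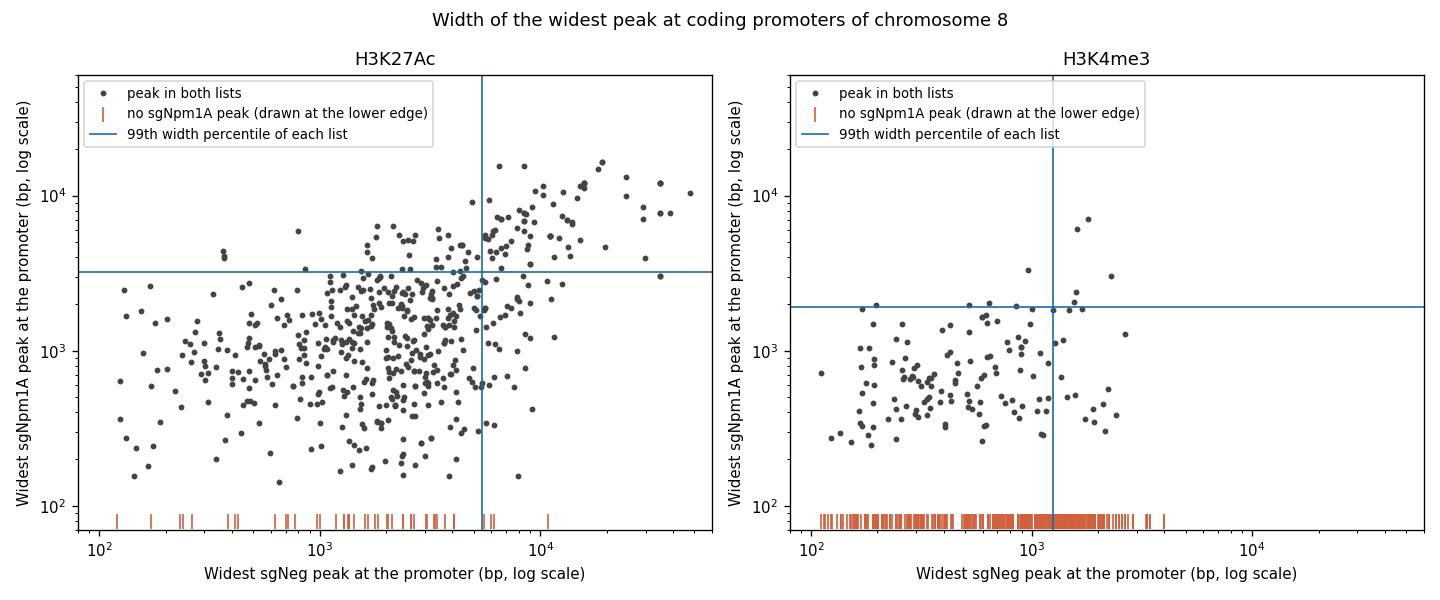
Width in bp of the widest sgNpm1A peak (vertical axis, log scale) against that of the widest sgNeg peak (horizontal axis, log scale) at each coding promoter of chromosome 8 with a sgNeg peak; orange ticks at the lower edge are promoters with no sgNpm1A peak, and blue lines mark the 99th width percentile of each list. For H3K27Ac 573 promoters have a peak in both lists, and for H3K4me3 143 do and 414 are at the lower edge. The 2 peaks of a point can lie at different starts of a gene, and they overlap at 304 of the 573 and 96 of the 143 promoters.

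The widest H3K4me3 promoter peaks of sgNeg were narrower than those of H3K27Ac, as were H3K4me3 peaks in general. The 99th width percentiles of the sgNeg lists were 1254 bp for H3K4me3 and 5416 bp for H3K27Ac. The lists of the marks differ in layout, so nothing is read from this difference. Nearly all promoters with these widest H3K4me3 peaks had no sgNpm1A peak within 1 kb of the start. This was the common case, as only 22.9% of all coding promoters of chromosome 8 had one. Of these 10 widest peaks, 5 lay at the promoters of a pair of genes read in opposite directions. MAF1, a repressor of RNA polymerase III, and SHARPIN, a subunit of a ubiquitin ligase complex, shared the widest peak, at chr8:144102584-144106572 (GRCh38), with 3989 bp and a fold enrichment of 10.6. LRRC14 and RECQL4 shared 3454 bp (13.3-fold). FBXL6 and SLC52A2, a riboflavin transporter gene, shared 3350 bp (12.9-fold). GPAA1, which attaches GPI anchors to proteins, had 3307 bp (14.1-fold). CCNE2, a cyclin of S phase entry, and NDUFAF6, an assembly factor of respiratory complex I, shared 2882 bp (10.8-fold). SNTB1 had 2871 bp, CEBPD 2740 bp, SDC2 2641 bp, and MTERF3 with PTDSS1 2569 bp. None of these promoters had a sgNpm1A H3K4me3 peak within 1 kb of the start. Further out, sgNpm1A peaks met the LRRC14 and RECQL4 peak over 47.7% of its length, that of GPAA1 over 41.3%, that of FBXL6 over 15.9% and that of PTDSS1 over 13.5%, while those of MAF1, CCNE2, SNTB1, CEBPD and SDC2 met none. RRS1, a ribosome assembly factor, and ADHFE1 shared 2664 bp (15.0-fold), and a sgNpm1A peak of 1282 bp (5.34-fold) lay near the ADHFE1 start without overlapping it.

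CEBPD, which encodes a myeloid C/EBP transcription factor, stood out in both marks of sgNeg. Its H3K27Ac peak was 10870 bp wide at 9.11-fold and its H3K4me3 peak reached 14.6-fold. Neither sgNpm1A list had a peak within 1 kb of its start, although 3 sgNpm1A H3K27Ac peaks of up to 4059 bp and 3.73-fold covered 57.0% of the wide sgNeg peak. The sgNpm1A H3K4me3 list had other promoters at its top. GPT led with 7087 bp at 6.10-fold, and 10 sgNeg peaks of up to 1308 bp and 5.41-fold lay along it. GPR20 followed with 6113 bp over sgNeg peaks of up to 1614 bp, then KCNS2, a potassium channel subunit gene, with 3335 bp over sgNeg peaks of up to 857 bp. GPIHBP1, which anchors lipoprotein lipase on endothelium, had 3016 bp over up to 2297 bp, and LY6L 2406 bp over up to 1031 bp. These 5 were chosen by their width in sgNpm1A.

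Overlap of wide peaks was next set beside the overlap of all peaks, since a wide peak meets another more easily and chromosome 8 is dense. Of all sgNeg peaks of chromosome 8, 67.3% shared 1 bp or more with a sgNpm1A peak for H3K27Ac, against 48.8% on the other autosomes, and 33.0% against 20.8% for H3K4me3. The median gap between sgNpm1A peaks was 1967 bp for H3K27Ac, under the width that defined a wide sgNeg peak, and 3291 bp for H3K4me3. Of the 121 wide sgNeg H3K27Ac peaks at a coding promoter of chromosome 8, 100% (96.9 to 100) met a sgNpm1A peak, against 87.6% on the other autosomes. Of the 169 over 5 kb from a coding start 98.8% (95.8 to 99.7) did, against 83.3%. With peaks this wide and this close, nothing is read from the H3K27Ac shares. For H3K4me3 the classes parted. Of the 151 wide sgNeg peaks at a promoter 20.5% (14.9 to 27.7) overlapped a sgNpm1A peak, against 4.99% elsewhere, whereas of the 287 distal ones 92.3% (88.7 to 94.9) did, against 82.3%. The promoter peaks were the stronger ones in sgNeg, with a median fold enrichment of 10.6 against 5.20 for the distal ones. The sgNpm1A H3K4me3 list held 292 wide peaks on chromosome 8, of which 12 lay at a coding promoter and 251 over 5 kb from any coding start. The same lean towards distal peaks was seen on the other autosomes, with 27 and 683 of 774.

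**Figure D5:**
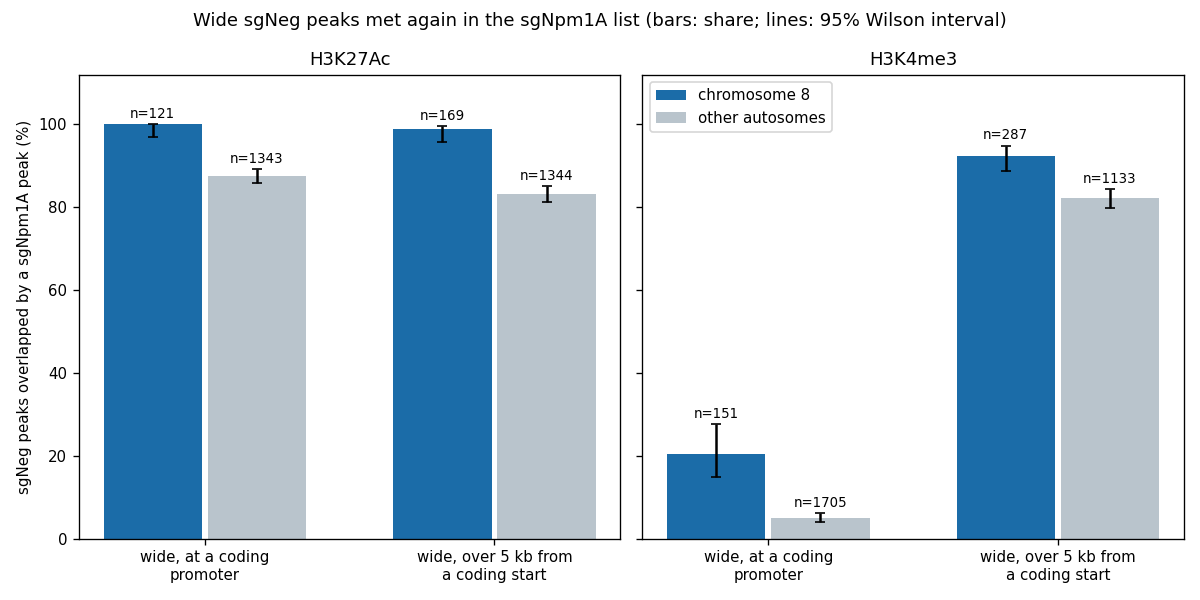
Share in percent of wide sgNeg peaks that share 1 bp or more with a sgNpm1A peak (vertical axis), at coding promoters and over 5 kb from a coding start (horizontal axis), on chromosome 8 (blue) and the other autosomes (grey), with 95% Wilson intervals and the number of peaks. For H3K4me3 on chromosome 8 the share is 20.5% at promoters and 92.3% far from them.

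At the level of promoters, 152 of the 172 with a wide sgNeg H3K4me3 peak had no sgNpm1A peak, 88.4% (82.7 to 92.3), against 96.3% on the other autosomes. For H3K27Ac this held for 4 of 122, 3.28% (1.28 to 8.13), against 18.2%, and a wide sgNpm1A peak overlapped the widest sgNeg peak at 72 of the 122, 59.0% (50.1 to 67.3) against 17.7%. Fold enrichment is scaled within a list, so the rank of the strongest promoter peak in its list was compared as well, where the strongest peaks of both lists overlapped. For H3K27Ac they overlapped at 277 of the 573 promoters with a peak in both, and 63.9% (58.1 to 69.3) of these ranked lower in sgNpm1A, against 67.7% elsewhere. For H3K4me3 they overlapped at 93 of 143, and 67.7% (57.7 to 76.4) ranked lower, against 58.4%.

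Gene lists by function were drawn up with earlier results of these data known, and their counts stand beside the shares of all promoters given above. Of 23 genes of transcription and chromatin, 21 had a sgNeg H3K27Ac promoter peak and 3 a wide one, CEBPD, HSF1 and KLF10, while 17 had a peak in sgNpm1A and 1 a wide one, HSF1. The strongest in sgNeg were ATAD2, a chromatin ATPase gene, at 10.8-fold, CEBPD, and NSD3, a histone methyltransferase gene, at 8.70-fold. No sgNpm1A peak overlapped this ATAD2 peak, and those on the NSD3 peak reached 250 bp and 3.23-fold. ZHX2 and TRPS1 were the weakest, at 2.79- and 2.81-fold in sgNeg. H3K4me3 peaks lay at 21 of the 23 in sgNeg, 8 of them wide, and at 1 in sgNpm1A.

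All 20 genes of signalling and cell survival had a H3K27Ac promoter peak in both lists, with 7 wide in sgNeg and 5 in sgNpm1A. YWHAZ, which encodes a 14-3-3 adaptor, was the strongest in sgNeg at 12.1-fold with 5851 bp, and had 2.70-fold and 600 bp in sgNpm1A. PTK2B, a focal adhesion kinase relative, had 15075 bp at 7.64-fold, and the 6 sgNpm1A peaks on it reached 1021 bp and 3.30-fold. TNFRSF10B, a death receptor gene, had 6.73- against 3.73-fold. At an internal start, FGFR1, a growth factor receptor gene, went the other way in width, with 4909 bp in sgNeg and 9052 bp in sgNpm1A. So did an internal start of IKBKB, a kinase of the NF-kB pathway, with 3812 and 4036 bp. At the start of the IKBKB record, a sgNeg peak of 2127 bp (4.48-fold) met a sgNpm1A peak of 1104 bp (3.63-fold). Near that of FGFR1, a sgNeg peak of 270 bp met a sgNpm1A peak of 643 bp. ASAP1 had 6628 bp in sgNeg, with 3 sgNpm1A peaks of up to 619 bp on it, and its wide sgNpm1A peak of 3438 bp lay elsewhere. The weakest in sgNeg were LY96 at 3.09-fold and IL7 at 2.69-fold. For H3K4me3, 20 of 20 had a peak in sgNeg, 9 of them wide, led by TRIB1, a pseudokinase that targets C/EBP proteins, at 14.6-fold and by NDRG1 at 14.1-fold. In sgNpm1A, 1 of 20 had one.

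Genes of DNA replication, translation and mitochondria all had both marks in sgNeg. Among 18 genes of DNA replication, repair and mitosis, 18 had both marks there, with 1 wide H3K27Ac and 9 wide H3K4me3 peaks, and in sgNpm1A 16 had H3K27Ac and 2 had H3K4me3. NBN, of double-strand break repair, had the highest H3K27Ac fold enrichment, 8.13 in sgNeg, and no sgNpm1A peak overlapped that peak. UBE2V2 had 7.21-fold in sgNeg and no H3K27Ac peak in sgNpm1A. MCM4, a subunit of the replicative helicase, was wide in sgNpm1A with 3480 bp at a place where sgNeg peaks reached 2757 bp, while its widest sgNeg peak of 3384 bp held 1 sgNpm1A peak of 622 bp. Among 14 genes of translation and ribosome assembly, all had both marks in sgNeg, with 2 wide H3K27Ac and 10 wide H3K4me3 peaks. In sgNpm1A 14 had H3K27Ac and 1 had H3K4me3. RPL8, a ribosomal protein gene, had the highest H3K4me3 fold enrichment of the list, 16.2 with 2424 bp in sgNeg, and its sgNpm1A peak of 384 bp at 3.05-fold lay under another sgNeg peak. PABPC1 and RPL7 had the highest H3K27Ac values in sgNeg, 8.69 and 8.65, and the sgNpm1A peaks on these reached 2.84 and 3.08. EEF1D, EIF3E and RPL8 were wide for H3K27Ac in sgNpm1A, with 7725, 4625 and 3621 bp. The EIF3E peak met a sgNeg peak of 131 bp only.

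Of 10 genes of mitochondrial function, all had both marks in sgNeg, 8 had H3K27Ac in sgNpm1A and 0 had H3K4me3. CYC1, a subunit of respiratory complex III, reached 16.0-fold for H3K4me3 and was the only wide one for H3K27Ac in either list, with 6295 bp in sgNeg and 4347 bp in sgNpm1A. TMEM70, an assembly factor of the ATP synthase, had a H3K27Ac peak of 7.48-fold in sgNeg, and sgNpm1A had none within 1 kb of its starts and 1 of 505 bp further along that peak.

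Most genes restricted to other tissues had a H3K27Ac promoter peak too, and few a wide one. Of 28 such genes, 27 had a H3K27Ac promoter peak in sgNeg and 28 in sgNpm1A. The median rank of their strongest peak in its list was the 87.9th percentile of fold enrichment in sgNeg and the 83.1st in sgNpm1A. In sgNeg 1 was wide, TG, at an internal start under the peak it shares with SLA. In sgNpm1A 2 were wide, TG and COL22A1, a collagen gene, with 3977 bp, both at internal starts. The wide TG peak of 8396 bp lay apart from the one shared with SLA in sgNeg. HNF4G, a nuclear receptor gene of the gut, had 4.59-fold in sgNeg and 2.70-fold in sgNpm1A. CALB1, a calcium buffer gene, and SLC26A7 were the weakest at 2.71- and 2.76-fold. H3K4me3 peaks lay at 23 of the 28 in sgNeg, none of them wide, and at 14 in sgNpm1A, none wide. CRH, the corticotropin-releasing hormone gene, had 5.41-fold in sgNeg and 3.82-fold in sgNpm1A. NEFL, a neurofilament gene, had 2.91- and 3.82-fold, and SOX17, an endoderm factor gene, 2.50- and 3.56-fold. LPL, at 5.20-fold in sgNeg, had no sgNpm1A peak.

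The sgNpm1A H3K4me3 list therefore held a peak at 14 of 28 of these promoters, against 1 of 23, 1 of 20, 2 of 18, 1 of 14 and 0 of 10 in the lists of genes above and 22.9% of all promoters of the chromosome. The members with one in those lists were TOX, ANGPT1, ESCO2, UBE2V2 and RPL8, of which TOX, ANGPT1 and ESCO2 are named here after their values were seen. Of 9 defensin genes, which encode antimicrobial peptides, 2 had H3K27Ac in sgNeg and 4 in sgNpm1A, and 4 and 3 had H3K4me3, none wide. Defensin genes have near-identical copies, how reads were assigned among them was not tested, and these values are uncertain.

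The widest peaks far from coding starts met peaks of the other guide RNA list. For H3K27Ac nothing is read from this, since 98.8% of all wide distal sgNeg peaks of chromosome 8 met a sgNpm1A peak. For H3K27Ac the widest in sgNeg was chr8:126610305-126631563 (GRCh37), 21259 bp wide at 4.36-fold and 165 kb from TRIB1, of which 61.8% was covered by 8 sgNpm1A peaks. Others lay inside FAM135B (19867 bp, 5.21-fold) and inside ZHX2 (18851 bp, 4.40-fold), over the noncoding gene LINC00051 73.2 kb from TSNARE1 (16860 bp, 4.76-fold), and over LINC01605 137 kb from ZNF703 (16093 bp, 3.30-fold). Between 58.6% and 82.7% of these was covered by sgNpm1A peaks. The widest H3K27Ac peak of the chromosome in sgNpm1A was itself distal. It spanned 28069 bp at chr8:108576522-108604590, 66.2 kb from ANGPT1, and 89.2% of it was covered by 6 sgNeg peaks of up to 10623 bp.

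For H3K4me3 the widest distal peak in sgNeg was chr8:107585511-107592010 (GRCh38), 87.6 kb from ANGPT1, with 6500 bp at 6.86-fold. A sgNpm1A peak of 8898 bp at 7.38-fold covered 100% of it. A second peak, 75.2 kb from ANGPT1, was 4048 bp wide in sgNeg, while its sgNpm1A counterpart measured 8420 bp. One more, 533 kb from the nearest coding start, that of SNX16, had 4030 bp at 10.8-fold in sgNeg and 8635 bp at 7.89-fold in sgNpm1A. The 4th lay 337 kb from C8orf90 (3876 bp, 7.28-fold) and the 5th inside ZC3H3 (3861 bp, 6.24-fold), with 75.6% and 66.9% of their length covered in sgNpm1A. All 5 distal peaks were met again in sgNpm1A, and the widest 3 were wider there. Both were common on chromosome 8. Of all wide distal sgNeg H3K4me3 peaks 92.3% met a sgNpm1A peak, and the median H3K4me3 peak was 446 bp in sgNpm1A against 211 bp in sgNeg. The narrowest was 245 bp in sgNpm1A against 110 bp in sgNeg. How far this carries into the H3K4me3 widths compared between the lists was not tested.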

How the data were processed

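ChIP-seq peaks came from a tagmentation protocol in OCI-AML3 cells, with 1 library per guide RNA and mark. The authors called peaks in each library and deposited, per peak, its start and end, a fold enrichment (a ratio of pileup to expected pileup) and −log10 p-values and −log10 q-values. Fold values were averaged over the region for H3K27Ac and taken at the summit for H3K4me3, as the layout of the lists shows. Per the labels, the submitters' processing notes name bcl2fastq 2.17, Trimmomatic 0.33, Bowtie 1.1.2, MACS2 2.1.0 and deepTools, with no role or threshold given. Any depth behind a peak is not given in the sources used here. They name hg38 for the ChIP-seq data, but H3K27Ac peaks end past chromosome 1 of hg38 and lie on GRCh37.

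Peaks were counted by midpoint in 500 kb bins. Bins with no peak in either list of a mark were left out. The short arm was taken up to 43 Mb and the long arm from 47 Mb (GRCh37) or 46 Mb (GRCh38). Starts came from GENCODE version 44 on GRCh37 (146567 starts of 20162 coding genes) and from a RefSeq gene table of GRCh38, where 19094 of 20037 coding genes had a strand. Genes were named from those at the 10 widest promoter peaks of each sgNeg list and the 5 widest of each sgNpm1A list (genes of 1 peak counted once), the 3 strongest and 2 weakest members of each gene list in sgNeg, members with a wide sgNpm1A peak, and the 5 widest distal peaks. The members and lists were chosen with earlier results of these data known. Where promoter peaks of both lists are compared, the other list's peaks that overlap the named peak were taken. Bins and promoters were tested on simulated peaks. Python 3.11.15, pandas 2.3.3, numpy 2.4.6 and scipy 1.17.1 were used. Alternatives were other bin sizes, filters on q-value, width and rank, the mean in place of the median, other promoter and width limits, and merged peaks. One marker gene is not reported here.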

Additional observations from a re-analysis of the deposited data

How the results depend on the processing

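Of 70 alternative values, 55 stayed within 1.5 times the value reported and 15 moved by more. The density of chromosome 8 relative to the autosome median was 4.59 times for sgNpm1A H3K27Ac with a q-value under 0.01 and 8.17 times with peaks of at least 1 kb. It was 1.00 times for sgNeg H3K27Ac with a q-value under 1e-05, and with the mean over bins it was 3.10 times for sgNeg H3K4me3 and 3.70 times for sgNpm1A H3K4me3. The number of promoters with a wide peak was 316, 230, 334 and 31 at the 95th percentile (sgNeg and sgNpm1A H3K27Ac, then sgNeg and sgNpm1A H3K4me3). With a fixed width of 2 kb it was 344 and 200 for H3K27Ac and 43 for sgNeg H3K4me3, and with peaks within 1 kb merged it was 93 for sgNeg H3K4me3. Promoters with a sgNpm1A H3K4me3 peak numbered 98 with 500 bp and 248 with 2 kb on either side. These width and promoter limits widen or narrow the count by construction, and the cause of the other changes was not tested. The density of peaks with a q-value under 1e-05 in both sgNpm1A lists, and of H3K4me3 peaks of at least 1 kb in both lists, gave no value because the median autosomal bin held none. No library could be left out, and no paired analysis was possible because each group had 1 library and no test was run. The depth of the libraries was not given, so a peak missing in sgNpm1A cannot be told apart from one not detectable at its depth.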
